A study of Capra hircus with 2 samples.

Results

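CCDC80, COL8A1, ABI3BP, FILIP1L and DCBLD2 are 5 of 154 genes with complete rows (117 with a symbol, 37 with an identifier alone) in a table from droplet-based single-cell RNA sequencing of goat ovarian granulosa cells. The cells came from Ji'ning grey goats, and there were 2 libraries: a high fertility library, from goats with more than 3 kids per birth, and a low fertility library, from goats with fewer than 2. The labels name no treatment, age or follicle stage and do not say how many goats were pooled in each library. The 5 genes were named as a group because of their levels in the 2 libraries and their joint occurrence with CCDC80, so the levels and joint detection given here are a description of that choice. With 1 library per group no test between groups was possible, and all intervals are 95% intervals that cover counting error only.

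Granulosa cells form an avascular layer inside the follicle, separated by a basal lamina from the theca and the ovarian stroma, whose fibroblasts and vessels lay down much of the collagenous matrix. CCDC80 is a secreted glycoprotein bound to the extracellular matrix, COL8A1 is a chain of the short-chain collagen type VIII found in basement membranes and vessel walls, and ABI3BP is a secreted matrix-binding protein. FILIP1L and DCBLD2 are no matrix proteins: the former is an intracellular protein, and the latter a transmembrane receptor with neuropilin-like domains. None of the granulosa markers looked for (FSHR, CYP19A1, INHA, INHBA, AMH, FOXL2, GJA1 and SERPINE2) and none of the stroma markers was among those genes, so neither the granulosa label nor the stroma-like label could be checked here. The group is therefore described by its genes, and no cell type is named for the cells that hold them.

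The high fertility library had 7106 cells and 63769786 UMIs (unique molecular identifiers, 1 per counted transcript), and the low fertility library 3345 cells and 45674506 UMIs. Where values are given in pairs, the high fertility library comes first. Median depth per cell was 7214.5 and 11080 UMIs, and 11.8% and 29.4% of the cells exceeded 15000 UMIs. The libraries shared 27 cell barcodes, and 4 and 1 of these cells held 2 or more of the 5 genes. No doublet caller was run, since the few genes at hand do not suffice for one. Of the 117 symbols, 110 were matched to RefSeq's ARS1.2 assembly, all of them on chromosome 1, with all 5 genes of the group among them. DCBLD2, COL8A1 and FILIP1L are consecutive rows of the table, ABI3BP follows a few rows later, and CCDC80 lies further on.

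Each of the 5 genes was rare and held by a minority of cells, and in most of these cells by a single UMI. CCDC80 had 2357 and 574 UMIs, or 37.0 (35.5 to 38.5) and 12.6 (11.6 to 13.6) CPM (counts per 1000000 UMIs of the library). COL8A1 stood at 9.30 (8.57 to 10.1) and 3.83 (3.28 to 4.44) CPM, on 593 and 175 UMIs. FILIP1L stood at 23.9 (22.7 to 25.1) and 7.93 (7.13 to 8.79) CPM, on 1525 and 362 UMIs. These 3 genes had more than 2 times the level in the high fertility library. DCBLD2, on 1187 and 523 UMIs, stood at 18.6 (17.6 to 19.7) and 11.5 (10.5 to 12.5) CPM, a smaller gap. ABI3BP was close to absent, with 22 UMIs in 20 cells and 5 UMIs in 5 cells, or 0.345 (0.216 to 0.522) and 0.109 (0.0355 to 0.255) CPM, so little of what follows concerns it. All 4 genes with 100 or more UMIs in each library were at least 1.5 times as high in the high fertility library, where 6.85% of the 73 other such genes were, and 3 of the 4 at least 2 times, where 2.74% were. Because this contrast chose the genes, nothing is read from these shares.

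For CCDC80 the libraries as deposited differed less in how many cells held the gene than in how much of it the richest cells held. It was detected in 832 cells, 11.7% (11.0% to 12.5%), and in 359 cells, 10.7% (9.70% to 11.8%). Yet cells with 5 or more CCDC80 UMIs numbered 129, or 1.82% (1.52% to 2.15%), against 14, or 0.419% (0.229% to 0.701%). Neither comparison is matched for depth. After each cell was thinned to 5000 UMIs, 8.55% and 5.26% of the cells held CCDC80, a wider gap in detection. Those 129 cells held 54.8% of all CCDC80 UMIs of their library and the 14 cells 17.6%. The richest cell of each library held 28 and 20 CCDC80 UMIs. With these cells left out of both libraries, the ratio of CCDC80 high over low was 1.67 (1.49 to 1.86), beside 2.94 (2.68 to 3.23) with them.

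FILIP1L, DCBLD2 and COL8A1 also had such cells, and ABI3BP had none. Cells with 5 or more FILIP1L UMIs, 72 and 11 in number, held 35.7% and 20.2% of its UMIs, and the ratio high over low was 2.46 (2.15 to 2.81) without them against 3.02 (2.69 to 3.39) with them. For DCBLD2, 41 and 8 such cells held 24.4% and 8.80% of the UMIs, and the ratio was 1.36 (1.22 to 1.52) without and 1.63 (1.47 to 1.81) with them. For COL8A1, 27 and 5 such cells held 35.2% and 30.9% of the UMIs, in the low fertility library a larger share than for CCDC80, and the ratio was 2.29 (1.86 to 2.84) without and 2.43 (2.05 to 2.89) with them. FILIP1L was detected in 10.0% and 6.82% of the cells, COL8A1 in 3.80% and 2.48%, and DCBLD2 in 9.50% and 10.8%. After each cell was thinned to 5000 UMIs, with 1812 and 564 shallower cells left out, the shares were 8.55% and 5.26% for CCDC80, 7.02% and 3.54% for FILIP1L, 2.50% and 1.24% for COL8A1, and 6.13% and 4.81% for DCBLD2.

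In the high fertility library CCDC80, COL8A1 and DCBLD2 were higher in deep cells, and FILIP1L was not. There CCDC80 lay between 19.6 and 24.7 CPM in the 4 bins below 10000 UMIs per cell and between 40.1 and 74.6 CPM in the 4 bins above. COL8A1 lay between 2.64 and 6.80 CPM below 10000 UMIs and between 9.15 and 22.1 CPM above, and DCBLD2 between 9.61 and 17.7 CPM below and between 20.2 and 37.7 CPM above. In the low fertility library CCDC80 showed no such rise, at 10.4 to 14.5 CPM in the 5 bins from 7500 UMIs upwards. There DCBLD2 had 21.2 CPM in its shallowest bin, on 10 UMIs, 7.70 to 11.5 CPM in the next 6 and 15.2 CPM in the deepest. COL8A1 in that library had 0.855 to 4.12 CPM in the first 7 bins and 7.27 CPM in the deepest, and FILIP1L 5.99 to 14.8 CPM with no order by depth. FILIP1L was highest in the shallowest bin of the high fertility library, at 42.1 (28.6 to 59.8) CPM on 31 UMIs, and was higher there than in the low fertility library in 8 of 8 bins. In cells below 7500 UMIs alone, the ratio for FILIP1L was 2.24 (1.66 to 3.09) and for COL8A1, on 74 and 6 UMIs, 2.66 (1.17 to 7.49). The intervals held 1 there for CCDC80, at 1.15 (0.895 to 1.51), and for DCBLD2, at 0.913 (0.654 to 1.30). For CCDC80 and DCBLD2 no gap between the libraries was thus distinguishable in the summed UMIs of the shallow cells. In the bin from 2500 to 5000 UMIs, however, CCDC80 stood at 22.8 (19.0 to 27.1) and 9.41 (4.70 to 16.8) CPM, with intervals apart. Those values rest on 128 and 11 UMIs, and in the other bins below 7500 UMIs the intervals of CCDC80 overlapped.

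**Figure D1:**
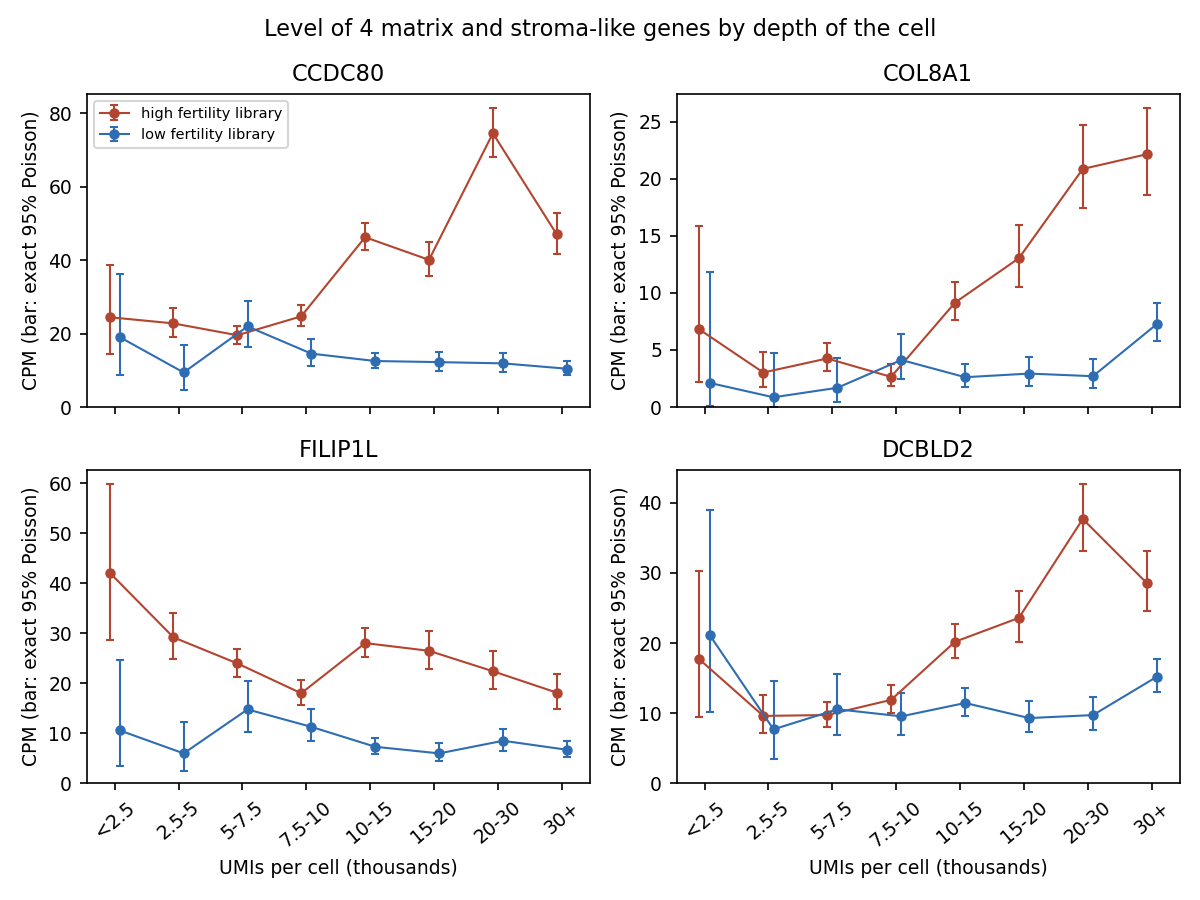
Level (CPM, linear axis from 0) of CCDC80, COL8A1, FILIP1L and DCBLD2 in 8 bins of UMIs per cell, in the high (red) and low (blue) fertility library; points are the bins' summed UMIs and bars exact 95% Poisson intervals. From 10000 UMIs per cell upwards the red points of all 4 genes lie above the blue ones, whereas below 7500 UMIs the intervals of CCDC80 and DCBLD2 overlap in most bins.

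The 4 abundant genes were found together in more cells than their separate detection would give. The expected number of cells with both genes was computed as if detection were independent among cells of the same library and depth bin. COL8A1 and FILIP1L were together in 122 cells of the high fertility library against 45.1 expected, 2.71 (2.25 to 3.23) times that number, and in 24 cells of the low against 8.65, 2.77 (1.78 to 4.13) times. COL8A1 and DCBLD2 followed at 2.40 (2.02 to 2.84) and 2.49 (1.78 to 3.39), on 139 and 40 cells. CCDC80 and COL8A1, in 132 and 34 cells, stood at 2.16 (1.81 to 2.56) and 2.50 (1.73 to 3.49). All pairs with COL8A1, the collagen chain, thus exceeded 2 in both libraries.

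The pairs without COL8A1 were lower. FILIP1L and DCBLD2, in 202 and 66 cells, stood at 2.04 (1.77 to 2.34) and 1.88 (1.46 to 2.40). CCDC80 and FILIP1L, in 215 and 61 cells, stood at 1.91 (1.66 to 2.18) and 1.91 (1.46 to 2.46). CCDC80 and DCBLD2, in 217 and 89 cells, had the lowest values, 1.65 (1.44 to 1.88) and 1.61 (1.29 to 1.98). For each of the 6 pairs the intervals of the 2 libraries overlapped, and whether the libraries differ was not tested. All 6 pairs reached 1.5 in both libraries. With a Poisson model of the mean level as the expected value none did, and 5 of the 6 lay below 1 in both libraries; that model expects CCDC80 in 26.3% and 14.9% of cells, against 11.7% and 10.7% observed. With expected values from depth bins, 3.39% of 1122 other pairs reached 1.5 in both libraries. These were pairs among 48 genes detected in at most 20% of the cells, and their median ratio was 1.04 in each library. Only pairs within the group were left out, so pairs of a group gene with another gene remain among the 1122. Of the 1122 pairs, 30 stood at or above the lowest pair of the group, at 1.61. The share of 3.39% is thus a background for sparse genes of this chromosome stretch with the group's genes included. It gives no test of the group, which was chosen with joint detection known.

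**Figure D2:**
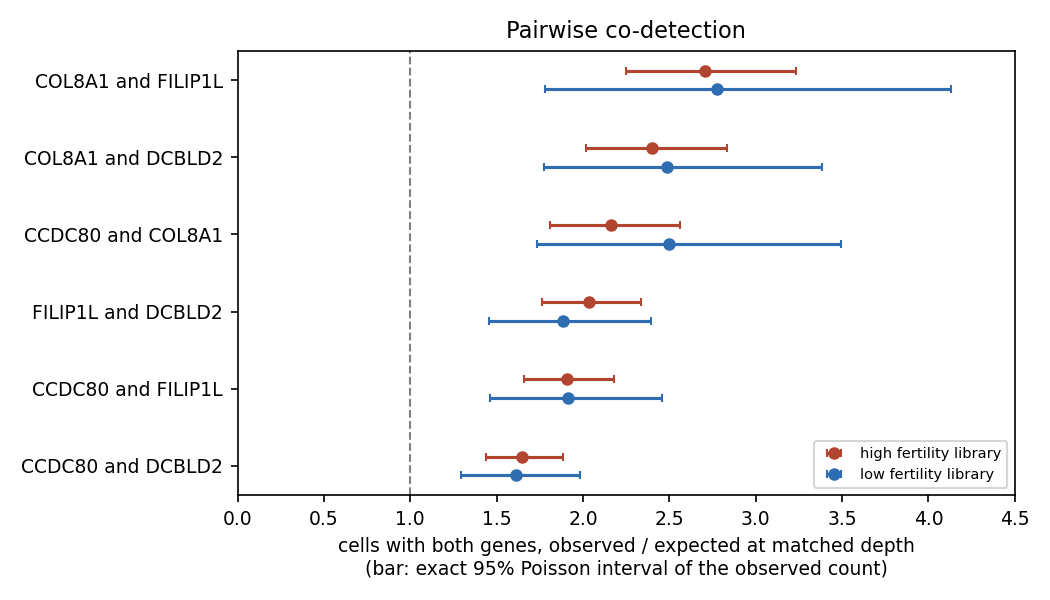
Cells holding both genes of a pair, observed over expected at matched depth (linear axis; dashed line at 1), in the high (red) and low (blue) fertility library; bars are exact 95% Poisson intervals of the observed count. All 12 intervals lie above 1, and the 3 pairs with COL8A1 lie highest.

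COL8A1 was also the gene whose cells most often held another gene of the group. Of its cells, 48.9% and 41.0% also held CCDC80, 51.5% and 48.2% DCBLD2, and 45.2% and 28.9% FILIP1L. Of the CCDC80 cells, in turn, 15.9% and 9.47% held COL8A1. CCDC80 was held by 832 and 359 cells and COL8A1 by 270 and 83. These shares are not matched for depth. Among the 4 abundant genes, cells with COL8A1 were the deepest, with medians of 14692 and 17492 UMIs. Pairs with ABI3BP rest on 0 to 8 cells. In the high fertility library ABI3BP was together with FILIP1L in 8 cells against 2.78 expected and with DCBLD2 in 8 against 3.34. In the low fertility library 2 of its 5 cells held DCBLD2 and none held CCDC80, COL8A1 or FILIP1L.

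The excess lay in the cells that held 3 or 4 of the genes. Cells with 2 or more numbered 496 in the high fertility library, 6.98% (6.40% to 7.60%), and 191 in the low, 5.71% (4.95% to 6.55%). With each cell thinned to 5000 UMIs the shares were 4.13% and 1.64%, and at 2000 UMIs 1.28% and 0.397%. Without thinning, the 496 and 191 cells were 1.27 (1.16 to 1.39) and 1.42 (1.22 to 1.63) times the 389 and 135 cells expected at matched depth. Cells with exactly 2 were close to the expected number, at 301 against 332 and at 139 against 122. Cells with 3 or more were 195 against 57.6, a ratio of 3.39 (2.93 to 3.90), and 52 against 12.9, a ratio of 4.02 (3.00 to 5.27). Cells with 4 or more were 55 against 4.84 and 7 against 0.602, ratios of 11.4 (8.57 to 14.8) and 11.6 (4.68 to 24.0). Of the 55 cells, 51 held CCDC80, COL8A1, FILIP1L and DCBLD2 without ABI3BP, and 1 cell held all 5 genes.

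Most UMIs of the group sat in these cells. Cells with 2 or more of the genes held 13.3% of the UMIs of the high fertility library but 86.3% of its COL8A1, 66.0% of its DCBLD2, 65.4% of its CCDC80 and 55.0% of its FILIP1L UMIs. In the low fertility library they held 10.8% of all UMIs, 81.1% of COL8A1, 50.8% of FILIP1L, 48.4% of DCBLD2 and 43.6% of CCDC80. Since such cells are chosen by holding these genes, the shares describe how unevenly the UMIs were spread. Within them CCDC80 stood at 181 and 50.9 CPM, and the ratio was 3.56 (3.12 to 4.09). For FILIP1L it was 2.64 (2.24 to 3.11). Both values depend on the choice of the cells by these genes.

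**Figure D3:**
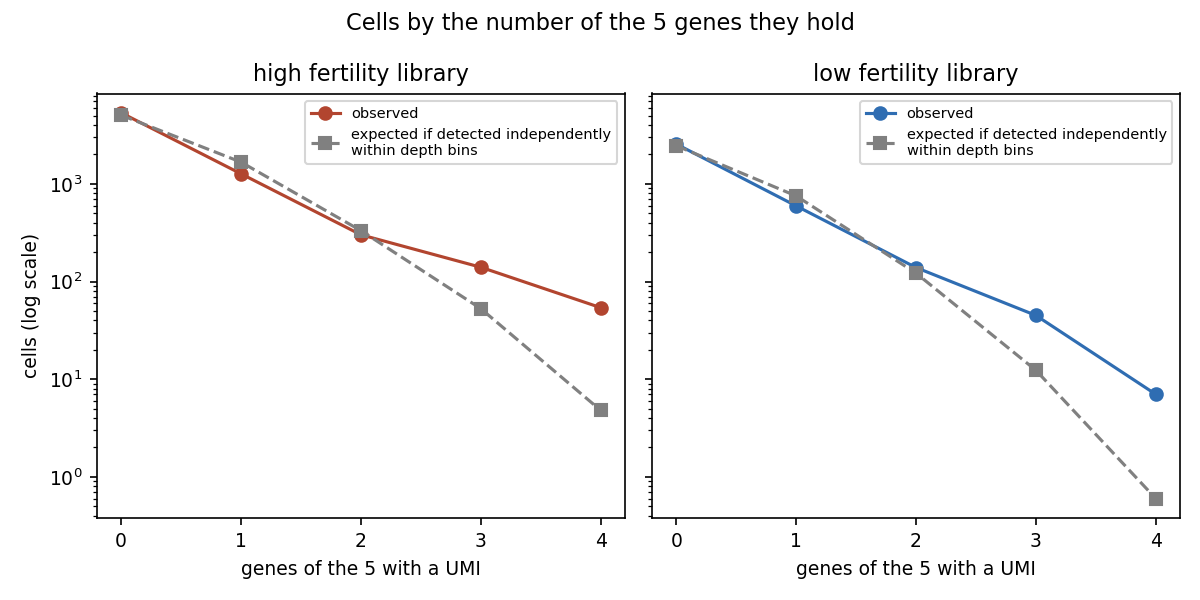
Number of cells (log axis) by how many of the 5 genes had a UMI, observed (circles) and expected from independent detection within depth bins (grey squares), in the high and low fertility library. Observed and expected numbers are close at 2 genes (301 against 332, and 139 against 122) and part at 3 and 4, where 140 and 54 cells were seen among high fertility cells and 45 and 7 among low fertility cells.

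Cells with several of the genes were deep, though less so than their detection alone would give. Cells with 2 or more had a median of 13893.5 UMIs (quartiles 9281 and 21900.5) and 18651 UMIs (11835 and 33044.5). Cells with none had medians of 6725 and 10188 UMIs. If the genes had been detected independently within depth bins, the median would have been 16319 and 23117 UMIs. Of the cells with 2 or more, 45.0% and 59.2% exceeded 15000 UMIs, and 93 and 14 cells lay below 7500 UMIs. Below 7500 UMIs in the high fertility library, 5 of the 6 pairs had intervals above 1, from FILIP1L and DCBLD2 at 2.01 (1.29 to 2.99) to COL8A1 and DCBLD2 at 5.05 (2.69 to 8.64). The exception was CCDC80 and COL8A1, at 2.06 (0.827 to 4.24) on 7 cells. In the low fertility library at most 6 cells stood behind any pair there. The part of doublets in the deep cells was not tested.

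The level of a gene was next taken in cells chosen by the other 4 genes, so that its own UMIs had no part in choosing the cells. The 5 genes themselves were grouped with their joint occurrence known. Raised levels here therefore describe that grouping and are no test of it. In cells with 1 or more of the other 4, COL8A1 had 11.1 (10.1 to 12.1) and 10.9 (9.15 to 12.8) times the UMIs expected at matched depth from cells with none of them. CCDC80 had 5.76 (5.48 to 6.05) and 2.61 (2.30 to 2.96) times, DCBLD2 5.01 (4.66 to 5.37) and 2.84 (2.50 to 3.21) times, and FILIP1L 4.13 (3.86 to 4.42) and 3.18 (2.73 to 3.67) times. COL8A1, the collagen chain, thus had the highest ratio in both libraries. In cells with 2 or more of the other 4, a choice made after seeing the data, COL8A1 had 20.3 (18.3 to 22.5) and 24.8 (19.6 to 30.8) times its expected UMIs. CCDC80 had 11.1 (10.4 to 11.8) and 4.25 (3.46 to 5.17) times, and DCBLD2 9.81 (8.97 to 10.7) and 4.65 (3.80 to 5.62) times. FILIP1L had 7.48 (6.77 to 8.25) and 7.14 (5.79 to 8.72) times. Whether the libraries differ in these ratios was not tested. In cells with exactly 1 of the other 4, the 4 genes ranged from 2.72 to 4.92 and from 1.98 to 6.30 times. ABI3BP had 4.91 (2.36 to 9.03) times its expected level in the cells of the high fertility library with 2 or more of the other 4, on 10 UMIs.

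Other genes of the table that differed in cells with 2 or more of the group were then counted. For each gene its UMIs in these cells were divided by those expected from cells with none of the 5 genes in the same depth bins. Of 73 other genes with 100 or more UMIs in each library, 8 were at least 1.5 times as high in both libraries, or 11.0%, and 3 were lower by that fold in both, or 4.11%. The median of the 73 ratios was 1.14 and 1.03. CD200, a surface glycoprotein of the immunoglobulin family that binds an inhibitory receptor on myeloid cells, stood at 3.97 (3.55 to 4.41) and 5.88 (5.07 to 6.79). It was detected in 32.5% and 30.4% of these cells, against 7.11% and 7.54% of the cells with none of the genes. Below 7500 UMIs it stood at 4.80 (3.22 to 6.90) and, on 4 UMIs, at 4.42 (1.20 to 11.3).

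ADAMTS1, a secreted protease that cleaves proteoglycans such as versican, stood at 12.7 (11.5 to 14.0) in the high fertility library, with 439 UMIs against 34.5 expected. In the low fertility library it stood at 2.39 (1.83 to 3.07), with 61 UMIs against 25.5. Without cells above 15000 UMIs it stood there at 0.923, on 4 UMIs, too few to tell an excess from none. BTG3, an anti-proliferative gene, stood at 2.47 (2.33 to 2.61) and 2.05 (1.87 to 2.25), and PROS1, which encodes the anticoagulant protein S, at 2.26 (2.13 to 2.40) and 1.92 (1.74 to 2.10). ROBO1, a receptor for SLIT guidance proteins, stood at 2.04 (1.56 to 2.61) and 1.97 (1.25 to 2.96). CBLB, a ubiquitin ligase, had 1.71 (1.56 to 1.87) and 1.98 (1.77 to 2.22). The nuclear corepressor NRIP1 had 1.79 (1.12 to 2.70) and 1.57 (0.836 to 2.69), on 22 and 13 UMIs, so that its value in the low fertility library was not distinguishable from 1.

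SAMSN1, an adaptor gene of blood cells, was lower, at 0.335 (0.219 to 0.491) and 0.310 (0.173 to 0.511) of the expected level. ENSCHIG00000015902, with no symbol in the table, stood at 0.368 (0.190 to 0.643) and 0.299 (0.143 to 0.550). CIP2A, an inhibitor of the phosphatase PP2A, stood at 0.593 (0.431 to 0.795) and 0.637 (0.378 to 1.01), but without cells above 15000 UMIs at 1.05 (0.684 to 1.53) and 0.864 (0.235 to 2.21), and below 7500 UMIs, on 7 UMIs and 1 UMI, at 1.74 (0.699 to 3.58) and 2.73 (0.0692 to 15.2), so that a lower level was not distinguishable without the deep cells. Of the 9 leukocyte markers looked for, 3 were in the table. Beside SAMSN1, CD96 had 0 UMIs in these cells of either library, with 1.59 and 0.207 expected, and CD80 1 and 0 UMIs, with 1.90 and 0.573 expected. Of the endothelial markers JAM2 alone was in the table, with 21 and 5 UMIs in all. In these cells JAM2 stood at 3.86 (1.25 to 9.02) and 20.4 (4.20 to 59.5), on 5 and 3 UMIs. Of the surface epithelium markers UPK1B alone was in the table, at 1.07 (0.220 to 3.12) and 1.24 (0.255 to 3.61) on 3 UMIs each. No marker of theca other than COL8A1 itself and none of pericytes, oocytes or luteal cells was present. The part of other cell types in these cells was therefore not tested.

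**Figure D4:**
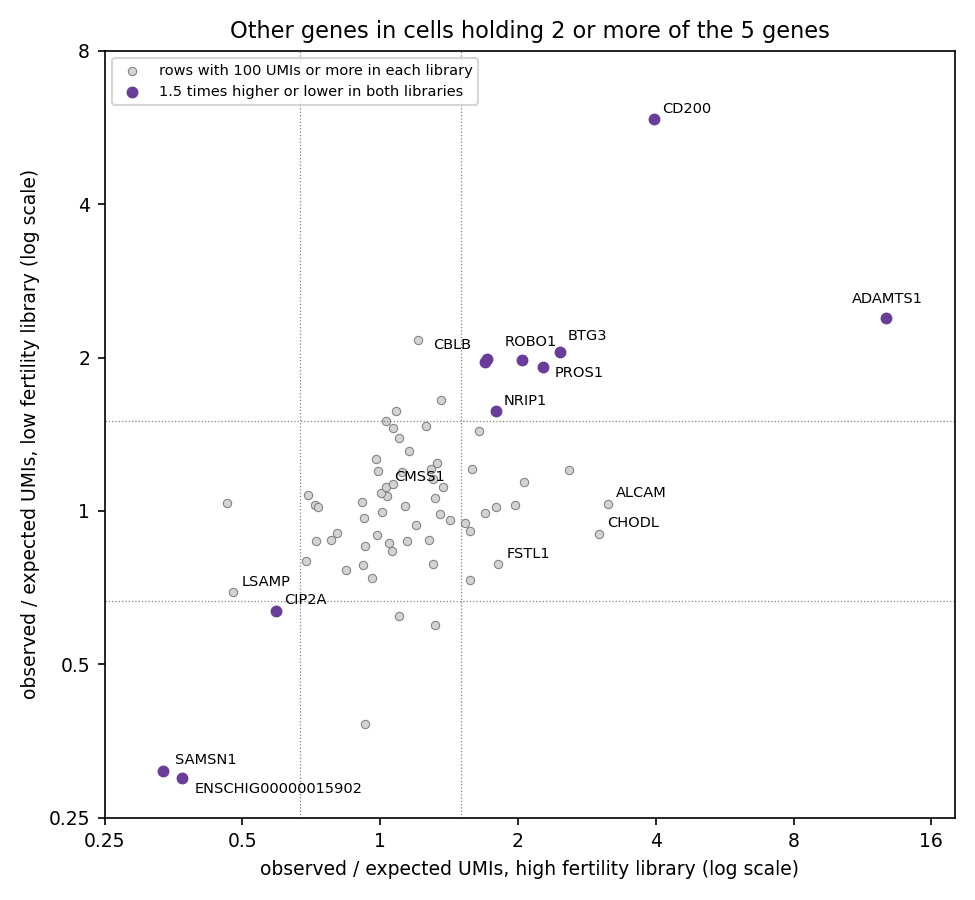
UMIs of the 73 other genes in cells holding 2 or more of the 5 genes, observed over expected at matched depth, in the high (horizontal) and low (vertical) fertility library, both on log axes; dotted lines mark a fold of 1.5 either way. The 8 genes higher in both libraries include CD200 (3.97 and 5.88) and ADAMTS1 (12.7 and 2.39), and the 3 lower ones include SAMSN1 (0.335 and 0.310).

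Of 29 matrix and matrix-remodelling genes looked for besides the 5, only ADAMTS1, ADAMTS5 and APP were in the table. APP, the amyloid precursor protein, had too few UMIs in the low fertility library for the count above. It stood at 13.6 (11.1 to 16.5) in the high fertility library on 101 UMIs and at 3.43 (1.996 to 5.49) in the low on 17. The aggrecan-cleaving protease ADAMTS5 stood at 5.34 (3.17 to 8.44) and 4.69 (1.89 to 9.66), on 18 and 7 UMIs. Of 20 adhesion and guidance genes, 14 were in the table and 6 had 100 UMIs in each library. CD200 and ROBO1 were the 2 higher in both libraries and none was lower in both, with medians of the 6 ratios of 1.57 and 1.03 beside 1.14 and 1.03 for all 73 genes.

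Several adhesion genes had ratios away from 1 in 1 library. ALCAM stood at 3.15 (2.74 to 3.59) there and at 1.03 (0.675 to 1.51) in the low fertility library. ROBO2 had 0.463 (0.274 to 0.732) and 1.04 (0.614 to 1.64), NECTIN3 0.327 (0.141 to 0.644) and 1.27 (0.510 to 2.61), and LSAMP, a surface protein of neurons, 0.477 (0.278 to 0.764) and 0.692 (0.299 to 1.36). CD47 had 1.10 (0.805 to 1.47) and 0.621 (0.406 to 0.910). CADM2 and IGSF11, on 5 or fewer UMIs, had intervals that held 1. Outside the lists, CHODL, a membrane lectin, stood at 3.01 (2.36 to 3.78) and 0.903 (0.390 to 1.78), and FSTL1, a secreted glycoprotein, at 1.81 (1.41 to 2.29) and 0.786 (0.430 to 1.32). Whether these ratios differ between the libraries was not tested.

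Cells in which only 1 gene of the group was detected are described next. For the 4 abundant genes, 57.6% to 73.7% of the detected cells rested on a single UMI, and free RNA can give such UMIs in droplets. No cell type that should lack these genes could be named here, so a background share is unknown and its part in these cells was not tested. In the 489 and 229 cells with CCDC80 alone, SAMSN1 was at 1.92 (1.62 to 2.26) and 1.61 (1.30 to 1.97) times the expected level. In the 336 and 219 cells with DCBLD2 alone it was at 0.0570 (0.0118 to 0.167) and 0.117 (0.0430 to 0.255), and in the 375 and 124 cells with FILIP1L alone at 0.262 (0.147 to 0.432) and 0.431 (0.229 to 0.737). In the 62 and 20 cells with COL8A1 alone no SAMSN1 UMI was found, with 9.05 and 4.06 expected. In cells with CCDC80 and another gene of the group, SAMSN1 stood at 0.431 (0.273 to 0.647) and 0.419 (0.229 to 0.704). CCDC80 was thus accompanied by SAMSN1 above the expected level only where no other gene of the group was detected.

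ENSCHIG00000015902 had the same contrast between the cells. It stood at 3.21 (2.61 to 3.92) and 2.23 (1.77 to 2.78) in cells with CCDC80 alone, and at 0.0469 (0.00119 to 0.261) and 0.119 (0.0324 to 0.305) in cells with DCBLD2 alone. ALCAM, an adhesion protein, stood at 2.67 (2.24 to 3.16) and 2.05 (1.52 to 2.70) with CCDC80 alone, and at 3.56 (3.05 to 4.12) and 1.19 (0.738 to 1.82) with CCDC80 and another gene of the group. Seen from the other side, the 583 and 366 cells with a SAMSN1 UMI, with medians of 7411 and 12071.5 UMIs, held 1.18 (1.03 to 1.35) and 1.33 (1.05 to 1.65) times the CCDC80 expected from the other cells. They held 0.106 (0.0344 to 0.247) and 0.0514 (0.00130 to 0.286) of the COL8A1, 0.200 (0.122 to 0.310) and 0.163 (0.0784 to 0.301) of the DCBLD2 and 0.255 (0.177 to 0.357) and 0.242 (0.121 to 0.433) of the FILIP1L. Of the 107 and 51 cells with both SAMSN1 and CCDC80, 94 and 45 held no other gene of the group. COL8A1 was detected in 0.686% and 0.273% of the SAMSN1 cells, against 3.80% and 2.48% of all cells, and DCBLD2 in 1.54% and 2.73% against 9.50% and 10.8%.

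In cells with FILIP1L alone ADAMTS1 stood at 4.79 (3.84 to 5.90) and 6.05 (4.56 to 7.88). Cells with CCDC80 alone had 1.33 (0.924 to 1.85) and 1.27 (0.798 to 1.93). Values of these genes with DCBLD2 alone are plotted below and not given in numbers, so no level is called particular to FILIP1L. BTG3 stood at 2.03 (1.84 to 2.24) and 1.29 (1.08 to 1.53) and PROS1 at 1.85 (1.67 to 2.04) and 1.48 (1.26 to 1.74) with FILIP1L alone. In cells with CCDC80 alone BTG3 stood at 1.08 and 1.09 and PROS1 at 0.886 and 1.09. CD200 stood at 3.06 (1.94 to 4.60) and 5.86 (3.21 to 9.84) in cells with COL8A1 alone and at 3.07 (2.53 to 3.68) and 1.31 (0.810 to 2.001) with FILIP1L alone. It was not distinguishable from the expected level with CCDC80 alone, at 1.11 (0.854 to 1.42) and 1.34 (0.970 to 1.81). The RefSeq assembly places FILIP1L within the span of CMSS1, a nucleolar gene, and the sources used here do not say whether strand was used in counting. CMSS1 stood at 1.01 (0.900 to 1.14) and 1.07 (0.915 to 1.24) in cells with FILIP1L alone and its ratio between the libraries was 1.02 (0.976 to 1.06), beside 3.02 for FILIP1L.

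**Figure D5:**
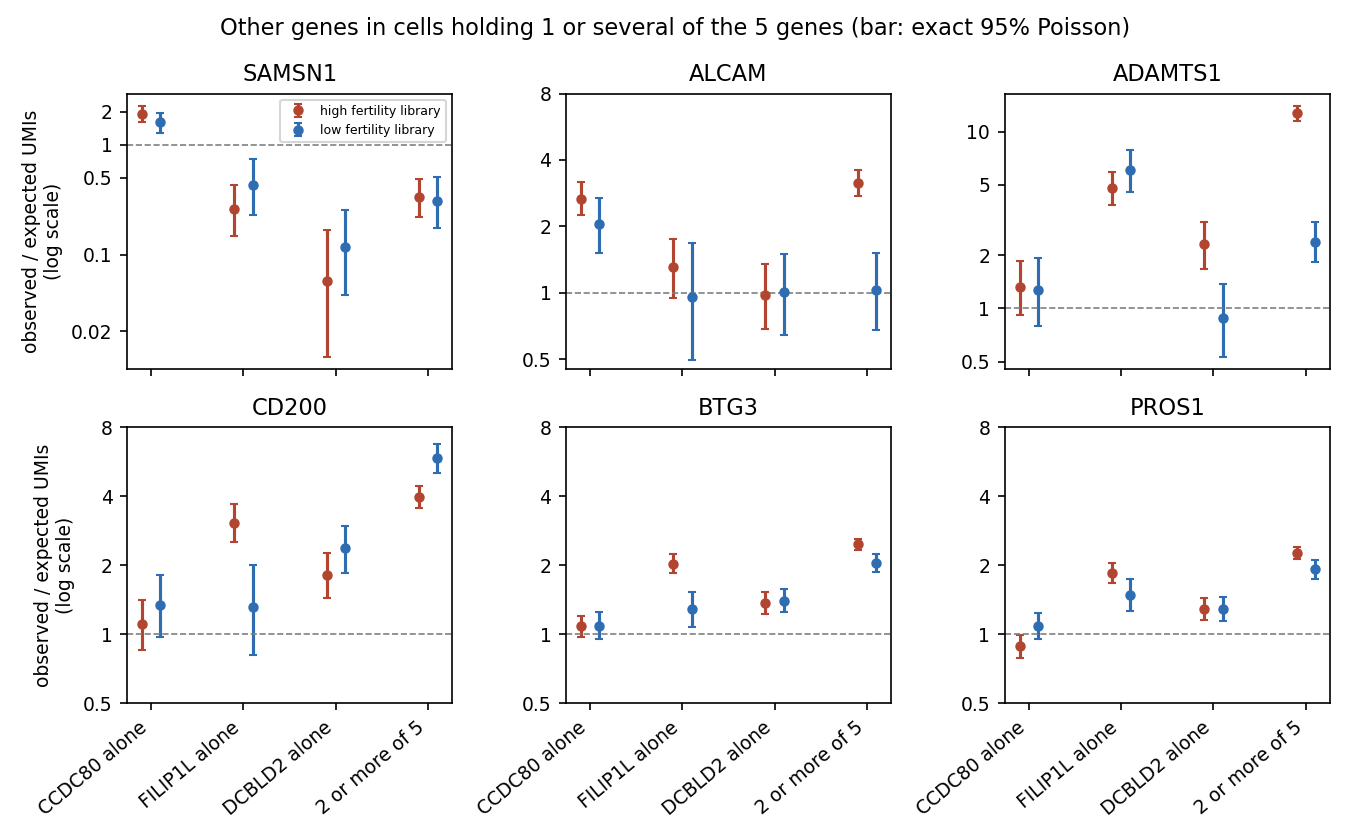
UMIs of SAMSN1, ALCAM, ADAMTS1, CD200, BTG3 and PROS1, observed over expected at matched depth (log axes; dashed line at 1), in cells holding only CCDC80, only FILIP1L, only DCBLD2, or 2 or more of the 5 genes, in the high (red) and low (blue) fertility library; bars are exact 95% Poisson intervals. SAMSN1 lies above 1 only in cells with CCDC80 alone (1.92 and 1.61), and ADAMTS1 lies above 1 with FILIP1L alone in both libraries (4.79 and 6.05).

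ENSCHIG00000012599, a gene without a symbol whose values split the cells into a low and a high mode, was also compared by the number of the 5 genes held. In the high fertility library the share of cells above a deposited value of 2.5 was 41.8% with none of the 5 genes, 50.3% with 1, 65.8% with 2 and 87.2% (81.7% to 91.5%) with 3 or more, where 63.3% would be expected at that depth. In the low fertility library the shares were 67.1%, 68.7%, 61.9% and 61.5% (47.0% to 74.7%), with 76.7% expected for the last. Its summed UMIs in cells with 2 or more of the genes were above the level expected at matched depth in both libraries, at 2.06 (2.04 to 2.08) and 1.14 (1.12 to 1.15) times, so share and level differ in direction in the low fertility library.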

How the data were processed

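The authors deposited 1 table of genes by cells on a natural log scale. The submitters' processing notes name Cell Ranger 2.2.0. The sources used here give no normalizing program, genome build, annotation or cell filter. The values equal the natural log of 1 plus 10000 times a gene's UMIs over the cell's total, and UMIs were worked back from them: the formula gave whole totals and UMIs within 0.0001 in all 10451 cells and 177610 values above 0. The table is held in part: its complete rows were used and 1 incomplete row was left out. Cells were assigned to libraries by the prefix of their column name.

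CPM are summed UMIs over summed totals. Expected values were taken within 8 depth bins (bounds at 2500, 5000, 7500, 10000, 15000, 20000 and 30000 UMIs), per library. Intervals of levels and of their ratios treat each UMI as independent, although the UMIs of a gene were often gathered in few cells. For levels in chosen cells the expected UMIs are also treated as fixed. Both make these intervals too narrow, by an amount that was not measured. Ratios between libraries have exact binomial, shares exact Clopper-Pearson and counts exact Poisson intervals; these cover counting error, and cells are no replicates. Thinned shares are hypergeometric expectations. The computations were checked on simulated data (Python 3.11.15, numpy 2.4.6, scipy 1.17.1, pandas 2.3.3). The simulated UMIs were Poisson draws at the mean levels, with set folds in chosen cells. Real UMIs were spread less evenly over cells, so the check does not show how well the intervals hold for them.

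The members, lists and settings were chosen with earlier results of these data known. Other genes were named if they passed a fold of 1.5 in both libraries with 100 or more UMIs in each (up to 12 higher and 8 lower symbols), or if they stood on a fixed list with 20 or more UMIs in each library. CHODL, FSTL1, ADAMTS5, JAM2, CD80, CMSS1 and the identifiers other than ENSCHIG00000015902 were named after their values were seen, as were the cells with a single member and with SAMSN1. No sequences were used. A gene that passed the fold of 1.5 is not reported here by name and is kept in the counts.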

Additional observations from a re-analysis of the deposited data

Results flagged for a closer look

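ENSCHIG00000010079, an abundant gene without a symbol, went in opposite directions in the 2 libraries in cells holding 2 or more of the 5 genes. It stood at 1.20 (1.16 to 1.23) times the level expected at matched depth in the high fertility library and at 0.938 (0.897 to 0.980) in the low fertility library. The difference was not tested, and both values lie within a fold of 1.5.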

How the results depend on the processing

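No paired analysis was possible because there was only 1 library per group. The ratio between the libraries for CCDC80 was 2.12 as a mean over cells of per-cell CPM, 2.09 without cells above 15000 UMIs, 2.63 after scaling by the median of ratios, 1.15 below 7500 UMIs, 2.61 without cells with 4 or more of the genes and 1.67 without its cells of 5 or more UMIs. For DCBLD2 the same settings gave 1.23, 1.25, 1.45, 0.913, 1.43 and 1.36, and standardising over depth bins gave 1.90, where the value below 7500 UMIs has an interval that holds 1. COL8A1 had 3.29 when standardised and 1.89 without cells above 15000 UMIs. FILIP1L had 2.69 without cells above 15000 UMIs, 2.24 below 7500 UMIs and 2.46 without its cells of 5 or more UMIs. ABI3BP gave no ratio below 7500 UMIs.

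With expected detection from a Poisson model of the mean level in place of the observed detection, 0 of 6 pairs reached 1.5. Of these, 5 pairs fell below 1: CCDC80 with COL8A1 at 0.659 and 0.866, with FILIP1L at 0.474 and 0.805 and with DCBLD2 at 0.588 and 0.859, COL8A1 with FILIP1L at 0.842 and 0.896, and FILIP1L with DCBLD2 at 0.760 and 0.939. That model gives CCDC80 in 26.3% and 14.9% of cells, where 11.7% and 10.7% held it. Below 7500 UMIs in the low fertility library CCDC80 with COL8A1 and COL8A1 with DCBLD2 had 0 cells.

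The share of cells with 2 or more of the genes was 1.28% and 0.397% when thinned to 2000 UMIs, 4.13% and 1.64% at 5000 UMIs, and 4.36% and 3.30% without cells above 15000 UMIs, where their median depth was 9567 and 10957 UMIs. The share with 3 or more was 2.74% and 1.55%. In cells with 1 or more of the other 4 genes, leaving out cells above 15000 UMIs gave a level of 4.81 and 2.99 for CCDC80, 3.70 and 2.46 for FILIP1L, 8.50 for COL8A1 in the low and 3.95 for DCBLD2 in the high fertility library.

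The 8 higher and 3 lower genes became 2 and 0 for cells with 1 or more of the genes. A fold of 2 left 3 higher genes. A minimum of 20 UMIs gave 14 higher and 7 lower genes, but among 116 genes counted in place of 73. Lower genes numbered 5 without cells above 15000 UMIs, 5 for cells with 3 or more of the genes and 9 below 7500 UMIs. Without cells above 15000 UMIs ADAMTS1 was at 0.923 in the low and CIP2A at 1.05 in the high fertility library. Below 7500 UMIs the low fertility library had only 14 cells with 2 or more of the genes. ADAMTS1 and ROBO1 were at 0 and BTG3 at 0.775 in these, too few cells to show a loss of the excess. CIP2A was at 1.74 and 2.73 below 7500 UMIs in the 2 libraries. The settings at 7500 UMIs, 3 or more genes, 2 or more or exactly 1 of the other 4 genes, the richest cells and cells with 4 or more genes were chosen after seeing the data. The cause of these changes was not tested.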

Other observations

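Leaving out the cells with 2 or more of the 5 genes changed how far some other genes differed between the libraries. The ratio of ADAMTS1 high over low was 2.12 (1.85 to 2.43) in all cells and 1.35 (1.15 to 1.60) without them. For ALCAM it was 1.96 (1.72 to 2.23) and 1.65 (1.44 to 1.90), for CHODL 1.89 (1.49 to 2.40) and 1.53 (1.19 to 1.98), and for APP 2.65 (2.02 to 3.52) and 2.18 (1.58 to 3.06). LSAMP, the neuronal surface protein, kept its ratio, at 2.30 (1.85 to 2.89) and 2.44 (1.94 to 3.09), and so did CD200, at 1.29 (1.17 to 1.42) and 1.32 (1.17 to 1.49), although CD200 was high in the cells left out of both libraries. GAP43, a growth cone protein, had 7 of its 11 UMIs of the high fertility library in 5 of those cells and none in the low fertility library.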
